A study of Mus musculus with 45 samples.

Results

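The Sox transcription factors measured here were 9 genes of 23575 in the deposited gene table (Sox1, Sox2, Sox3, Sox4, Sox8, Sox9, Sox11, Sox15 and Sox21), together with their 83 transcripts of 276608 in the deposited transcript table. They are a list of named genes with no threshold on their values, and all 9 had a row in both tables. Another 5 Sox genes with rows are described apart. The study followed mouse neural progenitors through factor-driven reprogramming with Oxford Nanopore long reads in 45 libraries. Progenitors had been derived from O4G, an embryonic stem cell line with an Oct4-GFP reporter, and were kept in NPC medium, which is N2B27 with EGF, FGF-2 and heparin. Their genotypes were WT, OKMS-Luciferase-AS and OKS-Luciferase-AS, shortened here to wild type, OKMS and OKS. The letters stand for the introduced Oct4, Klf4, Myc and Sox2, and OKS lacks Myc. Doxycycline induced the factors in serum medium with LIF (FBS-LIF + dox), from day 2 to day 20. Wild-type progenitors given the same medium for 2 days served as the control that does not reprogram, so these also received doxycycline. Late cultures were sampled either in that medium or in 2i-LIF, which holds LIF and inhibitors of GSK3 and MEK. Embryonic stem cells of the lines O4G, R1 and R1-Clone3, the last a single clone, were grown in 2i-LIF.

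The libraries came from 2 protocols that were analysed apart. The R9 set (22 libraries) was sequenced as direct cDNA after poly(A) enrichment. The R10 set (23 libraries) was PCR-amplified cDNA made from total RNA. R9 held 447990 to 1390424 reads per library in genes, and R10 held 566599 to 4236442. Most time points had 1 OKMS and 1 OKS library. The labels do not say whether replicates came from separate cultures, so the p-values measure the spread between these libraries, which may be technical. In R10 the mitochondrial share of reads was 0.124% to 0.319% in the 5 wild-type and unnumbered R1 libraries, 0.73% to 1.64% in OKMS and OKS up to day 10, and 1.56% to 2.35% in the other 10. The progenitor markers Nes, Fabp7, Pax6, Slc1a3 and Ptn summed to between 4909.9 and 6443 CPM (reads per 1e6 reads in genes) in R10 progenitors. In stem cells they summed to between 6.49 and 11.6 in the numbered libraries and to 46.3 in the unnumbered R1 library. The 5 pluripotency markers Pou5f1, Nanog, Esrrb, Zfp42 and Dppa5a summed to between 14.9 and 26.3 CPM in progenitors and to between 9887 and 12654 in stem cells, so both labels matched their markers.

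Sox proteins bind DNA through an HMG box, which bends the helix, and they act with partner factors such as the POU proteins. The family is sorted by sequence. Sox1, Sox2 and Sox3 are the SoxB1 activators that keep neural progenitors undifferentiated, and Sox2 also pairs with Oct4 (Pou5f1) in pluripotent cells. Sox21, of SoxB2, represses and counteracts SoxB1 in the neural tube. Sox4 and Sox11 (SoxC) act in progenitors and young neurons. Sox8 and Sox9 (SoxE) act in glial fate, and Sox9 also in cartilage. Sox15, the SoxG protein, is present in embryonic stem cells and placenta. Because Sox2 is itself an introduced factor in OKMS and OKS, its reads there may include the introduced copy, and the values do not tell the copies apart. The same holds for Pou5f1, which is counted below among the targets, the partners and the pluripotency markers.

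The sequences before the start sites of 4 members are shown because these genes moved in opposite directions between progenitors and stem cells in the values below. They come from the RefSeq promoter table (GRCm38.p6), which held 7 of the 9 members, and cover up to 250 bases before the annotated start. Bases inside an exon of the annotation or of the deposited transcripts were left out. Sox2 (chr3:34649745-34649994, plus strand) and Sox15 (chr11:69654787-69655003, plus strand, 33 bases left out) were higher in stem cells. Sox4 (chr13:28953732-28953949, minus strand, 32 bases left out) and Sox11 (chr12:27342719-27342968, minus strand) were higher in progenitors. Capitals mark every match, on either strand, to the motifs listed after the sequences.
Sox2: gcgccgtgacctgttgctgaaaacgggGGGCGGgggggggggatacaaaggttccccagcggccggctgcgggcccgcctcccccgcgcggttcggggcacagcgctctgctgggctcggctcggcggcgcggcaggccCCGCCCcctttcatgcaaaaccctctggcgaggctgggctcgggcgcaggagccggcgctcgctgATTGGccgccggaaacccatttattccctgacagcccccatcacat
Sox15: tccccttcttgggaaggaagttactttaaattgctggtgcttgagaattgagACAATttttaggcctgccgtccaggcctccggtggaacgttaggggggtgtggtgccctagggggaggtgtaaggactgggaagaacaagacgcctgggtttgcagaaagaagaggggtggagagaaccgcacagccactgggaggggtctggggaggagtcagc
Sox4: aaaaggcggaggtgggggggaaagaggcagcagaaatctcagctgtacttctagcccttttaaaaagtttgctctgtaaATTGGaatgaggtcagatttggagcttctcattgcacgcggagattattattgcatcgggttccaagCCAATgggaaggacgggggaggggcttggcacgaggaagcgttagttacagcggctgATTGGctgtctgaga
Sox11: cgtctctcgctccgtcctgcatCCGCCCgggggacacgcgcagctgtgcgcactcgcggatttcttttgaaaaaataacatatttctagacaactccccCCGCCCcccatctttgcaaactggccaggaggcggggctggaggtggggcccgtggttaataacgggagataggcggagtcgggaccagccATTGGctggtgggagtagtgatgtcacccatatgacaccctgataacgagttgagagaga

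The motifs searched were the SOX core ACAAT, the octamer ATGCAAAT, the E-box CACGTG, the CCAAT box, the GC box GGGCGG and the TATA box TATAAA, each on both strands. The SOX core was found once among the 7 members, in Sox15 at position -198 from the start, and 27.7% of all 32851 promoters held it. The CCAAT box occurred 4 times before Sox4, 3 of them in the bases shown, and 0.840% of promoters held at least 4. It occurred once before Sox2, at -46, once before Sox11, at -60, and in 33.8% of all promoters. The GC box, held by 32.7% of promoters, occurred 2 times before Sox2 and 2 times before Sox11. The octamer and the TATA box matched none of the 7 windows, against 1.60% and 12.4% of all promoters. The Sox2 window had 72.0% G and C with 27 CG pairs, Sox15 55.6% with 5 pairs, Sox4 50.8% with 11 pairs and Sox11 58.0% with 17 pairs, against medians of 52.4% and 6.00 pairs. A match describes these letters only and is no evidence of binding.

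The first comparison set stem cells against progenitors in NPC medium, pooling genotypes and stem cell lines within a protocol (R10: 7 against 4 libraries; R9: 2 against 4). In R10, 7 of the 8 members tested changed, against 45.8% of all 15415 genes tested (22.4% higher, 23.5% lower): Sox2 and Sox15 were higher in stem cells, and Sox3, Sox4, Sox8, Sox9 and Sox11 were lower. In R9, 8 of 9 changed in the same directions, with Sox1 added to the higher ones, against 36.0% of genes (17.6% higher, 18.4% lower). The median difference of the R10 members was -4.28 on the log2(CPM + 1) scale, beside 0.01 over all genes. Without the unnumbered R1 library 7 members were called. The numbered stem cells had mitochondrial shares of 1.81% to 2.35% and the progenitors 0.153% to 1.12%. Among these libraries cell type and this share cannot be told apart. The unnumbered R1 library, also in the comparison, had a share of 0.124%, below every progenitor. It measured 87.4 CPM for Sox2, 19.0 for Sox15, 3.73 for Sox4, 0.747 for Sox8 and Sox9, and 0.373 for Sox3 and Sox11. The part of the share in the Sox differences was not tested. A change here needs limma's Benjamini-Hochberg adjusted p under 0.05 and a difference of at least 1 on that scale, which understates the change of genes at low CPM. As the RNA is bulk, fewer cells of a type and less RNA per cell cannot be told apart.

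**Figure D1:**
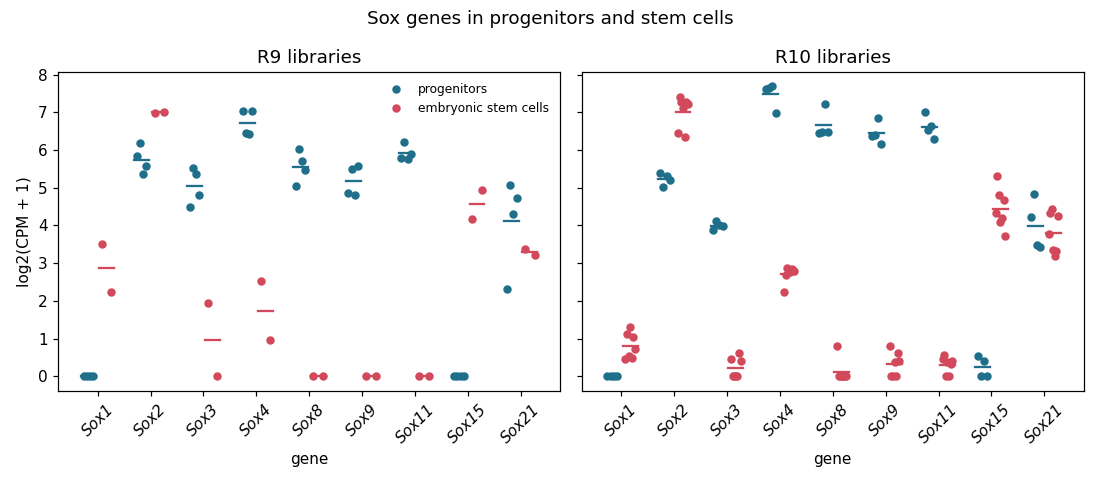
Each dot is a library, plotted as log2(CPM + 1) for the 9 Sox genes, with progenitors and stem cells side by side in an R9 panel and an R10 panel, and short lines at the group means. Sox8, Sox9, Sox11 and Sox3 sit high in progenitors and near 0 in most stem cell libraries, Sox4 drops to a low level above 0, Sox15 does the reverse, and Sox21 overlaps.

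Of the SoxB1 genes, Sox2 was present in both cell types. In R10 it measured 40.9 CPM in OKMS progenitors, 31.5 in OKS progenitors, and 39.1 and 35.9 in the wild-type pair. The 7 stem cell libraries ran from 79.8 through a median of 148 to 169 CPM. The groups did not overlap, and the means of 36.8 ± 4.09 (SD, n = 4) and 133 ± 34.7 (n = 7) differed 3.60-fold (1.78 ± 0.20 SE, adjusted p = 1.14e-06). In R9 the progenitors measured 56.2, 72.6, 40.4 and 47.2 CPM and the stem cells 126 and 129, a difference of 1.26 ± 0.24 (adjusted p = 0.00644) that no longer passed without either stem cell library.

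Sox3, the X-linked SoxB1 gene, went the other way. The R10 progenitors measured 13.6, 16.4, 15.2 and 14.9 CPM, while 4 of the 7 stem cell libraries had no Sox3 read and the highest had 0.519 CPM. The difference was -3.79 ± 0.21 (adjusted p = 3.17e-10), an 86.2-fold ratio of the means, and in R9 it was -4.08 ± 0.60 (adjusted p = 0.00206).

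Sox1, an early marker of neural ectoderm, had no read in any of the 8 progenitor libraries of both protocols. It was low but had reads in every stem cell library, at 10.4 CPM in O4G and 3.72 in R1 in R9, and at 0.373 to 1.45 CPM (median 0.656) in R10. The R10 values were 1 to 5 reads per library, several of them below 3 reads. Against the 3-count limit over each progenitor group, the stem cell mean was at least 7.34-fold higher in R9 and at least 2.80-fold higher in R10. Sox1 was called in R9 (2.88 ± 0.38, adjusted p = 0.00136) and fell under the level filter in R10.

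Sox21, the SoxB2 repressor, overlapped between the cell types. It measured 17.6, 27.5, 10.2 and 9.76 CPM in R10 progenitors and 8.13 to 20.6 CPM (median 12.7) in stem cells. The difference was -0.18 with a 95% confidence interval from -0.85 to 0.49 (adjusted p = 0.629), so a change of that size in either direction was not resolved. The sign was not kept under other scalings: the difference was 0.02 with quantile normalization and 0.05 with median centring, which moved the median of all genes from 0.01 to 0.24.

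Both SoxC genes were progenitor genes. Sox4 measured 196, 201, 206 and 125 CPM in R10 progenitors and 3.73 to 6.27 CPM (median 5.91) in stem cells, a 32.3-fold ratio (-4.77 ± 0.18, adjusted p = 5.85e-12). Sox11 measured 129, 91.7, 98.8 and 77.2 CPM in progenitors and at most 0.471 CPM in stem cells (-6.32 ± 0.21, adjusted p = 1.57e-12). Sox4 thus kept a low level in every R10 stem cell library, whereas 2 of the 7 had no Sox11 read. In R9, Sox4 measured 4.73 and 0.931 CPM in the stem cells and Sox11 was at 0 in both.

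The SoxE genes had the same arrangement. Sox8 measured 87.0, 88.8, 148 and 89.2 CPM in R10 progenitors, and only the unnumbered R1 library among the stem cells had a read (0.747 CPM). Sox9 measured 81.7, 83.5, 115 and 71.2 CPM in progenitors and up to 0.747 CPM in stem cells. The differences were -6.55 ± 0.24 for Sox8 (adjusted p = 3.04e-12) and -6.14 ± 0.23 for Sox9 (adjusted p = 5.05e-12). In R9 both were at 0 in both stem cell libraries, at least 33.8-fold lower for Sox8 and at least 26.0-fold lower for Sox9.

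Sox15 was the stem cell counterpart. It had 0.439, 0, 0.318 and 0 CPM in R10 progenitors and 12.1 to 39.1 CPM (median 19.0) in stem cells (4.22 ± 0.28, adjusted p = 2.94e-09). In R9 the 4 progenitors had no read and the stem cells measured 17 and 29.8 CPM, at least 24.3-fold higher.

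The order of the members within a cell type was read from TPM, the transcript abundance scaled by length, summed over each gene's transcripts. In R10 progenitors Sox4 came highest at 261 ± 57.9 TPM (SD, n = 4), then Sox11 at 109 ± 43.4, Sox9 at 60.9 ± 14.0 and Sox8 at 38.6 ± 11.2. Sox2 (14.8 ± 4.44), Sox21 (14.5 ± 5.28) and Sox3 (14.2 ± 1.27) followed and did not differ beyond their spread, nor did Sox11 from Sox9 or Sox9 from Sox8. In R9 progenitors Sox4 (125 ± 24.4 TPM, n = 4) and Sox11 (70.0 ± 4.08) came first again, but the rest took another order. Sox3 (34.7 ± 11.4), Sox2 (25.5 ± 5.38), Sox9 (23.7 ± 10.1) and Sox21 (23.7 ± 12.7) stood above Sox8 (15.1 ± 5.72), and neighbours among these 5 did not differ beyond their spread. In R10 stem cells the sums were 29.1 ± 11.7 TPM (n = 7) for Sox15 and 28.5 ± 7.44 for Sox2, Sox21 stood at 10.0 ± 4.36, and each of the others was at 2.25 TPM or below. These sums leave out reads that no listed transcript took. Of the Sox2 gene reads, 139 of 395 in progenitors and 624 of 3016 in stem cells were in listed transcripts (35.2% and 20.7%), against 81.3% of Sox4 reads in progenitors and 91.8% of Sox15 reads in stem cells. In R9 progenitors the share was 36.6% for Sox2 and 39.6% for Sox8, against 100% for Sox3. In R10 progenitors it was 60.1% for Sox8, 62.2% for Sox11 and 80.5% for Sox9. The place of Sox2 in either cell type, that of Sox8 in progenitors, and the order of Sox8, Sox9 and Sox11 there, can therefore not be read from these sums. Over all gene reads, with no scaling for length, Sox2 measured 133 ± 34.7 CPM in R10 stem cells and Sox15 22.2 ± 9.04. Counted the same way in progenitors, Sox2 measured 36.8 ± 4.09 CPM and Sox3 15.0 ± 1.13 in R10. There Sox8 (103 ± 29.8 CPM), Sox11 (99.2 ± 21.9) and Sox9 (87.8 ± 18.9) did not differ beyond their spread between libraries. Within each library Sox8 was above Sox9, while Sox11 had no constant place. In R9 progenitors Sox2 measured 54.1 ± 13.9 CPM, Sox8 47.7 ± 13.3 and Sox3 33.6 ± 11.3.

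At transcript level, 32 of the 83 member transcripts passed the filter between stem cells and progenitors in R10, and 24 changed (3 higher, 21 lower), against 39.8% of 58952 transcripts (23.4% higher, 16.4% lower). All 7 tested Sox4 transcripts, all 7 of Sox11, all 4 of Sox9, both of Sox8 and that of Sox3 were lower. The filter asked for at least 1 TPM in at least 4 libraries, the size of the progenitor group. As these genes were low in stem cells, their transcripts passed it mainly through the progenitors, and those of Sox15 through the stem cells. These counts therefore repeat the gene results and are no separate support. None of the 3 tested Sox21 transcripts changed. Sox15 had 2 transcripts, both with its whole coding sequence. The 2-exon form rose from 0 to 25.7 TPM and the 3-exon form, with a further exon that starts upstream at chr11:69647815, from 0 to 3.34 TPM. The 2-exon form held the larger share in R9 as well, at 28.8 against 9.55 TPM.

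Sox2 has its coding sequence in 1 exon. Of the TPM in its listed transcripts, which took the minority of its reads given above, 2 forms held the most (48.2% and 18.4% in R10 progenitors, 41.0% and 28.5% in stem cells). The unspliced one, with the whole coding sequence, averaged 7.13 TPM in R10 progenitors and 11.7 in stem cells (0.74 ± 0.30, adjusted p = 0.0527). The other was recorded as 2 blocks covering 52.5% of the coding sequence, and it rose from 2.72 to 8.11 TPM (1.30 ± 0.35, adjusted p = 0.00745). At day 2 in R10 this 2-block form was at 0 in both wild-type libraries and in OKMS, and at 42.2 TPM in OKS. In R9 it was likewise at 0 in the wild-type and OKMS libraries of day 2 and at 12.6 TPM in OKS. It stayed at 0 in OKMS at days 4 and 6 in both protocols, while OKS had 35.5 and 8.57 TPM on those days in R9 and 35.5 TPM at day 6 in R10. The gene itself had reads in all of these libraries, so a transcript at 0 shows no assigned read and not that the form was missing.

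Transcripts with the whole coding sequence held 3.35% of the Sox4 TPM and 2.07% of the Sox11 TPM in R10 progenitors. As TPM is scaled by length, a short record weighs more per read than a long one. The shares and ranks of records given here are therefore not those of reads, and shares of long whole-coding records are lower than by reads. Here whole means that the exons cover all of its bases, not that the frame is open throughout. For Sox8 the share was 90.2%, but only 2 of those records, with 49.4% and 0.869% of the Sox8 TPM, had the full open frame of 464 residues, and one with 38.1% had a frame of 221. For Sox9 the share was 55.0%, for Sox2 49.8%, for Sox21 11.3%, and for Sox3 it was 100%. The most abundant Sox11 record, at 50.0 TPM, was a single block of 926 bases within the last part of the gene and held no coding base. The most abundant Sox8 record (19.1 TPM) and the second of Sox9 (16.8 TPM, 4135 bases) matched the reference transcript. The first of Sox9 (26.6 TPM, 1206 bases) was a 2-exon fragment with 71.7% of the coding sequence.

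Other Sox genes, from a list of 11, had 5 rows in the table, of which 4 were tested in R10. Sox5 (24.4 to 0.117 CPM, -4.50), Sox6 (35.2 to 0.196 CPM, -4.93) and Sox12 (-2.27) were lower in stem cells, and Sox13 was higher (3.07 to 15.2 CPM, 1.86). The known joint targets of Oct4 and Sox2 were higher for 7 of 7 genes, with a median of 6.00, led by Nanog (9.12), Pou5f1 (8.67) and Fbxo15 (6.73). Of 7 tested neural and other Sox targets, 4 were lower and 3 higher, with a median of -4.20. The radial glial lipid-binding gene Fabp7 (-11.31), the gliogenic factor Nfia (-7.28) and the intermediate filament gene Nes (-5.37) were the largest. Of 6 POU and PAX partners, Pou5f1 was higher and 5 were lower, among them Pou3f4 (-6.56), Pou3f1 (-5.51) and Pou3f2 (-4.12). In R9 the joint targets (7 of 7 higher) and the partners (1 higher, 5 lower) counted the same. Of 5 other Sox genes tested there 2 were higher and 2 lower (median -0.89). Of 8 neural and other Sox targets 1 was higher and 4 were lower (median -2.32).

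The second comparison asked what the reprogramming medium did without factors, in wild-type R10 libraries after 2 days against NPC medium (2 against 2), and so shares its progenitors with the first. Of 7 members tested, 3 were lower and none higher, against 26.8% of 14688 genes called, 14.9% higher and 11.9% lower. Sox3 went from 15.2 and 14.9 CPM to 0.391 and 0.659 (-3.40 ± 0.39, adjusted p = 0.00392). Sox8 went from 148 and 89.2 CPM to 28.2 and 14.8 (-2.43 ± 0.40, adjusted p = 0.0109). Sox11 went from 98.8 and 77.2 CPM to 27.0 and 19.8 (-1.87 ± 0.28, adjusted p = 0.00811). For these 3 genes no serum library reached the lowest library in NPC medium. The groups did not overlap for Sox2 and Sox9 either, which were higher in serum and not called. At 2 against 2 libraries such separation says little, and how many of all genes separate this way was not counted.

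The other members had no such fall. Sox2 measured 58.7 and 70.2 CPM in serum against 39.1 and 35.9 (0.76, adjusted p = 0.0583). Sox9 measured 176 and 127 CPM against 115 and 71.2 (0.72, adjusted p = 0.139), and Sox4 324 and 202 against 206 and 125 (0.67, adjusted p = 0.205). Sox21 stood at 7.05 and 10.5 CPM against 10.2 and 9.76 (-0.19, adjusted p = 0.750). The single R9 wild-type library of day 2 had Sox3 at 0, Sox8 at 4.24, Sox11 at 21.2, Sox2 at 76.4 and Sox4 at 191 CPM. Without any 1 of the 4 R10 libraries, which leaves an arm of 1 library, no member passed, but then only 0 to 1141 of all genes did. The differences kept their size, from -3.53 to -3.28 for Sox3, -2.87 to -1.99 for Sox8 and -2.09 to -1.66 for Sox11. No member passed in R9 alone either, with 1 serum library. Markers of other cell types moved in the same libraries: the 4 astrocyte genes summed to 42.6 and 93.3 CPM in wild-type progenitors and to 1188 and 3057 in serum, with Gfap and Aqp4 called higher. Of 3 oligodendrocyte genes tested, the lineage factors Olig1 (-2.32) and Olig2 (-4.62) were called lower and 1 was called higher. Of 3 fibroblast genes 1 was higher, and of 4 neuron genes 1 was. Their part in the Sox changes was not tested.

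Sox2ot, the noncoding transcript that overlaps Sox2, was called higher in serum (2.76 ± 0.54, adjusted p = 0.0172), at 21.9 and 8.57 CPM against 0.953 and 1.43. Both genes are recorded on the plus strand, so strand cannot separate their reads. How reads in the shared stretch were assigned is not given in the sources used here. The most abundant Sox2ot record in wild-type serum, at a mean of 15.7 TPM, starts at chr3:34653547. That is past the end of Sox2 at 34652461. Of 6 POU and PAX partners tested, with a median of -0.46, only Pou3f1 was called, and it fell by 5.23 on the log2 scale (adjusted p = 0.00154). Of the 5 progenitor markers 2 were lower, Nes (-1.47, adjusted p = 0.0215) and Ptn (-1.10, adjusted p = 0.0366), and the median was -0.33.

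Before induction, OKMS and OKS progenitors were set against wild-type ones in NPC medium (R10, 2 against 2). None of the 7 members tested was called by limma, with 1.51% of 14017 genes called (1.43% higher, 0.0856% lower) and 2717 genes at an unadjusted p under 0.05. DESeq2 and edgeR on the recovered reads called 0 members too. The mitochondrial share was 1.08% and 1.12% in OKMS and OKS and 0.273% and 0.153% in wild type, so genotype and this share cannot be told apart. The member nearest to the threshold was Sox21, at 17.6 CPM in OKMS and 27.5 in OKS against 10.2 and 9.76 in wild type (1.07 ± 0.30, adjusted p = 0.114). Sox2 in R10 differed by -0.06 (95% confidence interval -0.54 to 0.42). In R9 the factor-carrying libraries had 40.4 and 47.2 CPM of Sox2, below the 56.2 and 72.6 of wild type, a difference of -0.54 that did not pass.

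At day 2 in the same serum medium, OKMS and OKS together were set against wild type (R10, 2 against 2), which shares its wild-type libraries with the medium comparison. None of 6 members tested was called by limma, edgeR or DESeq2, with 0.740% of 15402 genes called by limma (0.714% higher, 0.0260% lower) and 2344 at an unadjusted p under 0.05. Sox2, the introduced factor among the members, measured 101 CPM in OKMS and 138 in OKS against 58.7 and 70.2 in wild type. The libraries did not overlap, yet the difference of 0.87 ± 0.39 did not pass (adjusted p = 0.322). Sox21 measured 28.5 and 28.4 CPM against 7.05 and 10.5 (1.61 ± 0.51, adjusted p = 0.184). Sox11 measured 60.9 and 54.5 CPM against 27.0 and 19.8 (1.28, adjusted p = 0.199). In R9 it measured 23.7 and 29.4 CPM against 21.2 in the single wild-type library, a smaller difference of 0.30.

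**Figure D2:**
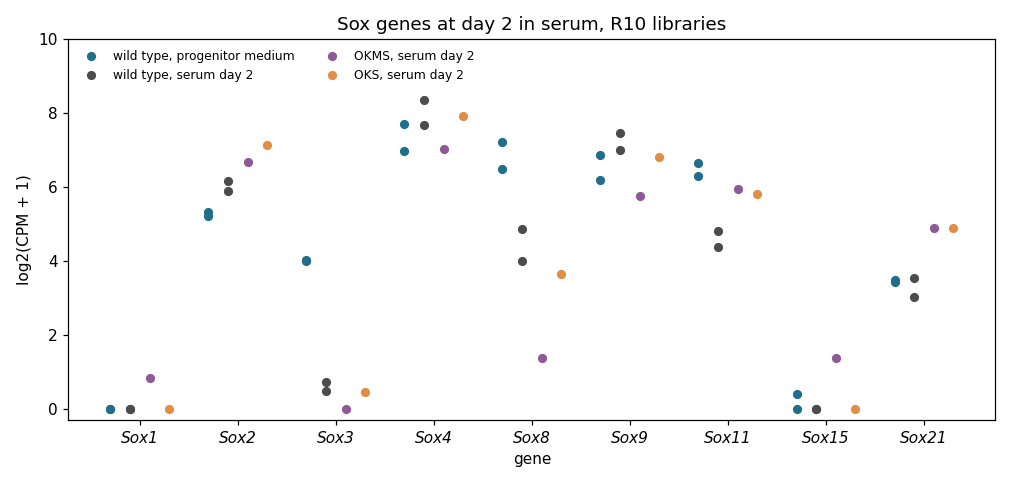
R10 libraries as dots, with CPM on a log2(CPM + 1) axis for each Sox gene: wild type in NPC medium, wild type in serum at day 2, OKMS at day 2 and OKS at day 2. Sox21 and Sox11 of the factor-carrying libraries lie above both wild-type serum libraries, and Sox8 lies below both.

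The SoxE genes lay below wild type in these R10 libraries without passing the test. Sox8 measured 1.58 CPM in OKMS and 11.6 in OKS against 28.2 and 14.8 (-1.92, adjusted p = 0.273). In R9 the direction was the other one, with Sox8 at 6.78 CPM in OKMS and 13.4 in OKS against 4.24 in the single wild-type library (1.01). Sox9 measured 53.0 and 110.5 CPM against 176 and 127 (-0.96, adjusted p = 0.342). Sox4 overlapped, at 129 and 239 CPM against 324 and 202 (-0.54, adjusted p = 0.599). The astrocyte genes summed to 164 and 633 CPM with factors, against 1188 and 3057 in wild type, with 0 of the 4 called. Their part in the SoxE values was not tested. Genotype and the mitochondrial share given above split these R10 libraries in the same way, so the 2 cannot be told apart. The 114 genes called, all outside the family, included Pou5f1, itself an introduced factor (5.91, adjusted p = 0.00185), and the Notch target gene Hes5 (5.61, adjusted p = 0.00435).

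Over the R9 course from uninduced progenitors (day 0) to day 20 in serum, limma's F test over 7 days, with the system as a term, called 5 of 9 members, against 10.7% of 19357 genes (5.50% higher, 5.24% lower). Sox2 was the member that rose, and Sox3, Sox4, Sox9 and Sox21 fell. Cell type markers moved over the same course: 5 of 5 progenitor genes (median -3.95) and 2 of 4 oligodendrocyte genes (median -4.27) were lower, and 4 of 5 pluripotency genes were higher (median 8.65). Of 4 astrocyte genes 1 was higher and 1 lower, and of 5 neuron genes 1 was higher and 1 lower. Of 2 neural crest and Schwann genes, 3 mesoderm genes and 4 fibroblast genes tested, 1 each was higher. Their part in the Sox changes was not tested.

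**Figure D3:**
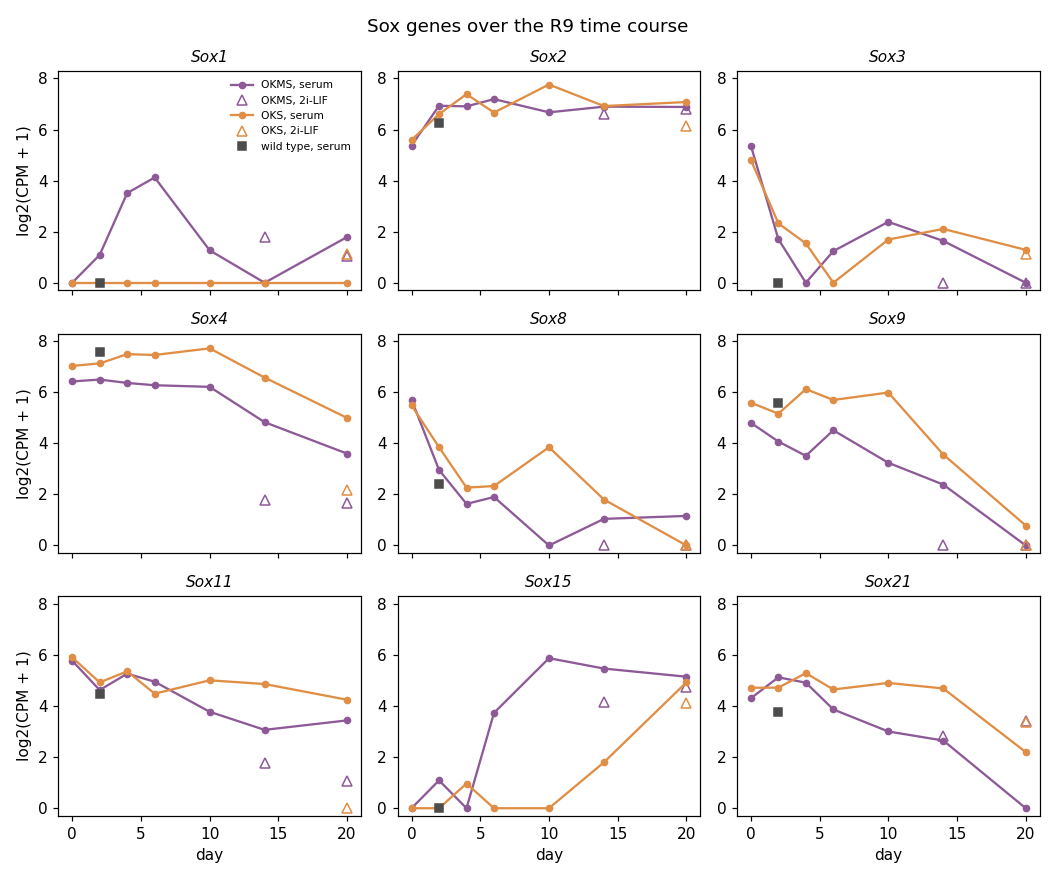
Panels for the 9 Sox genes plot CPM of the R9 libraries against day, with lines for OKMS and OKS in serum, triangles for 2i-LIF and a square for the wild-type library of day 2. Sox3 and Sox8 are low from day 2 in both systems, Sox4 and Sox9 stay higher in OKS through day 10, and Sox15 appears in OKMS at day 6 and in OKS at day 14.

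Sox2 in OKMS measured 40.4 CPM at day 0 and then 121, 119, 145, 101, 118 and 117 CPM at days 2, 4, 6, 10, 14 and 20. In OKS it measured 47.2 CPM at day 0 and then 96.3, 166, 100.4, 216, 119.9 and 134 CPM on the same days. Every library after day 0 was above both day 0 libraries. The largest mean difference was 1.74 at day 10 (adjusted p = 0.0496), and this call was lost in 20 of 28 alternatives, among them most of those without 1 library.

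Sox3 dropped at once, from 40.4 CPM to 2.26 at day 2 in OKMS and from 27.0 to 4.01 in OKS. Later values were 0 to 4.22 CPM in OKMS and 0 to 3.31 in OKS (largest difference -4.47 at day 6, adjusted p = 0.0293, lost in 11 of 28 alternatives). Sox8 measured 51.2 CPM at day 0 and 6.78 at day 2 in OKMS, and 43.8 and 13.4 in OKS, but missed the threshold (-5.02 at day 20, adjusted p = 0.0554). The R9 wild-type library of day 2, without factors, was as low for both genes.

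Sox4 and Sox9 were lowest at day 20 in both systems but took different courses. Sox4 in OKMS measured 84.8, 89.3, 81.4, 76.4, 73.1, 27.4 and 11.1 CPM from day 0 to day 20. In OKS it measured 129.8, 139, 179, 175, 209.7, 94.3 and 30.9 CPM, so its highest value was at day 10. Its difference at day 20 was -2.43 (adjusted p = 0.00177). Sox9 was below its day 0 value in every later OKMS library, whereas in OKS it was above it at days 4, 6 and 10. In OKMS it measured 26.9, 15.8, 10.4, 21.8, 8.44, 4.22 and 0 CPM. In OKS it measured 47.2, 34.8, 68.7, 50.9, 62.5, 10.8 and 0.719 CPM (-4.81 at day 20, adjusted p = 0.00235).

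Sox21 in OKMS measured 18.8, 33.9, 29.2, 13.6, 7.03, 5.28 and 0 CPM, and in OKS 25.3, 25.4, 38.1, 24.1, 29.0, 24.8 and 3.59 (-3.41 at day 20, adjusted p = 0.0188). Sox11 measured 53.8 CPM at day 0 and 9.85 at day 20 in OKMS, and 59.0 and 18 in OKS, a difference of -2.0 that did not pass (adjusted p = 0.107). Without the pair of day 20 libraries no member was called, and without the system term none was. Of 9 tested neural and other Sox targets in the same course 4 fell and 2 rose. Of the 7 Oct4 and Sox2 targets 6 rose, led by Pou5f1 (9.76), itself an introduced factor, Utf1 (9.05) and Lefty1 (6.44).

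Sox15 had no read at day 0 in either system. In OKMS it had 1.13 CPM at day 2, 0 at day 4, 12.3 at day 6, 57.7 at day 10, 43.3 at day 14 and 34.5 at day 20. In OKS it stayed at or below 0.954 CPM through day 10, then had 2.48 CPM at day 14 and 29.5 at day 20. The F test did not pass (5.04 at day 20, adjusted p = 0.128). Sox1 had 10.4 CPM at day 4 and 16.4 at day 6 in OKMS, and no read in any OKS library of this course (adjusted p = 0.470).

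The R10 series had fewer days and is given as values. In OKMS at days 2, 4, 6, 10 and 18 Sox15 measured 1.58, 1.06, 7.95, 70.4 and 44.5 CPM, and in OKS at days 2, 6 and 18 it measured 0, 0 and 8.96. Sox9 measured 53.0, 12.8, 3.53, 10.2 and 1.48 CPM in OKMS, all below the 81.7 of its uninduced library, and 110.5, 96.0 and 5.12 in OKS. Sox4 measured 129, 84.1, 45.0, 71.3 and 20.8 CPM in OKMS, below its uninduced 196 from day 2 on, and 239, 247 and 57.6 in OKS. In these libraries, too, OKS was above OKMS for Sox4 and Sox9 and below it for Sox15 on each shared day. Whether R9 and R10 libraries of a condition came from the same RNA is not stated, so this may not be an independent repeat.

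Sox21 in R10 measured 28.5, 6.38, 0.883, 0.849 and 1.48 CPM in OKMS and 28.4, 36.3 and 3.84 in OKS. At day 2 the systems were level, and at day 6 they stood at 0.883 and 36.3 CPM. Sox1 measured 0.790, 8.51, 1.77, 1.70 and 2.97 CPM in OKMS and 0, 0 and 1.28 in OKS. The OKS value at day 18 was 1 read, below the 3.84 CPM that 3 reads make in that library. The OKMS values at days 2, 6, 10 and 18 were 1 or 2 reads, also below 3 reads. Only OKMS at day 4, with 8 reads, was above that limit.

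The systems were then compared directly in R9, with the day as a block over the 6 induced days (no replicate within a day). Of 8 members tested 4 were called, against 18% of 14277 genes (6.93% higher in OKMS, 11% lower). Sox4 was lower in OKMS on 6 of 6 days (-1.27 ± 0.18, adjusted p = 9.59e-04) and Sox9 on 6 of 6 (-1.60 ± 0.36, adjusted p = 0.00647). Sox21 was lower on 5 of 6 days (-1.15 ± 0.39, adjusted p = 0.0411), and Sox15 was higher on 5 of 6 (2.27 ± 0.74, adjusted p = 0.0365). The uninduced day 0 pair in R9 already lay the same way for Sox4 (-0.61), Sox9 (-0.79) and Sox21 (-0.41), while Sox15 was at 0 in both. In R10 the uninduced OKMS and OKS libraries were level for Sox4 (196 and 201 CPM) and Sox9 (81.7 and 83.5 CPM), and Sox21 stood at 17.6 against 27.5 CPM. With day 0 as a further pair the Sox15 call was lost (1.95). Sox11 (-0.63, adjusted p = 0.149), Sox8 (-0.90, adjusted p = 0.249), Sox3 (-0.33, adjusted p = 0.638) and Sox2 (-0.15, 95% confidence interval -0.60 to 0.29) did not pass.

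Sox1 fell under the filter. It had 21 reads in OKMS and 0 in OKS over these days, but 12 of them were in the day 6 library and OKMS at day 14 had 0. Without the day block no member was called. The Sox21 call was lost in 16 of 22 alternatives and that of Sox15 in 10 of 21, among them those without a library of day 6, 10 or 14. The difference between systems was not called different between days 2 to 6 and days 10 to 20 for any member (smallest adjusted p = 0.487, Sox21), nor for any of the 16086 genes. Of the Oct4 and Sox2 targets 4 of 7 were higher in OKMS, among them Nanog (3.15), Utf1 (3.10) and Fbxo15 (2.52). Of the 8 tested neural and other Sox targets 4 were lower, among them Fabp7 (-1.68) and Zcchc24 (-1.58), and Tubb3 was higher. Cell type markers differed in the same libraries: 3 of 4 astrocyte genes (median -2.08), 3 of 5 progenitor genes (median -1.20) and 2 of 4 oligodendrocyte genes (median -1.56) were lower in OKMS, and 3 of 5 pluripotency genes were higher (median 3.15). Of 3 neuron genes tested, Tubb3 was higher and Map2 lower. Their part in the Sox differences was not tested.

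Late cultures in 2i-LIF were compared with serum cultures of the same system, day and protocol in 5 pairs, of which 3 were R9 and 2 R10. No doxycycline is listed for the 2i-LIF cultures, so medium and doxycycline cannot be told apart. Of 6 members tested 3 changed, against 12.3% of 14935 genes (5.95% higher, 6.32% lower): Sox4 and Sox11 were lower in 2i-LIF and Sox21 was higher, each in 5 of 5 pairs.

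**Figure D4:**
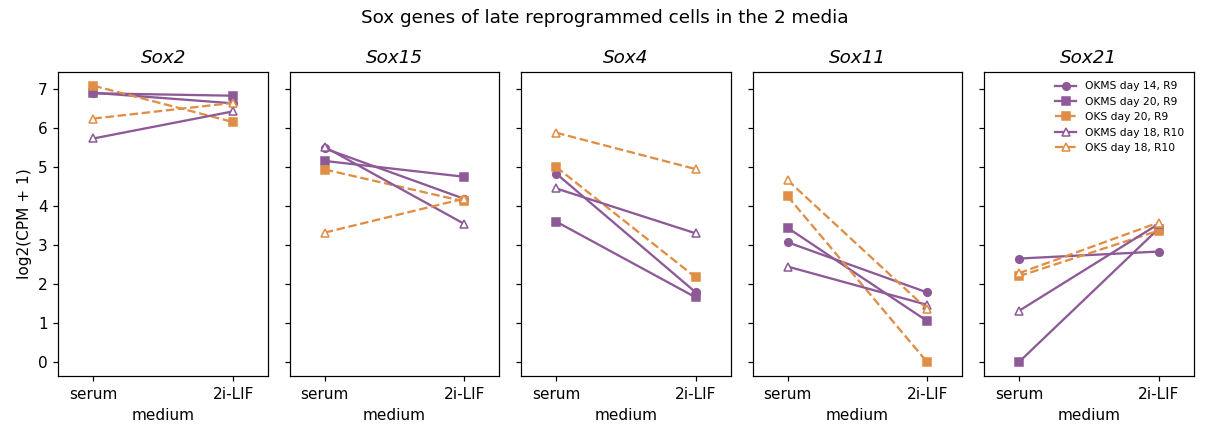
Lines join serum and 2i-LIF libraries of a pair for Sox2, Sox15, Sox4, Sox11 and Sox21, as log2(CPM + 1), with filled points for R9, open points for R10 and dashed lines for OKS. All 5 lines fall for Sox4 and Sox11, all 5 rise for Sox21, and those of Sox2 cross.

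Sox4 measured 27.4, 11.1, 30.9, 20.8 and 57.6 CPM in serum (OKMS day 14, OKMS day 20 and OKS day 20 in R9, then OKMS and OKS day 18 in R10). In 2i-LIF the same pairs had 2.44, 2.15, 3.49, 8.82 and 29.7 CPM (-1.98 ± 0.39, adjusted p = 0.00209). Sox11 measured 7.39, 9.85, 18, 4.45 and 24.3 CPM in serum and 2.44, 1.07, 0, 1.76 and 1.56 in 2i-LIF (-2.44 ± 0.53, adjusted p = 0.00435). Every 2i-LIF library had less Sox11 than any serum library, on 0 to 2 reads against 3 to 25.

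Sox21 measured 5.28, 0, 3.59, 1.48 and 3.84 CPM in serum and 6.11, 9.67, 9.31, 10.6 and 10.9 in 2i-LIF (1.66 ± 0.51, adjusted p = 0.0347). Its 2 groups did not overlap in CPM, on 0 to 5 reads in serum and 5 to 9 in 2i-LIF. Both libraries of the day 14 pair held 5 reads, and their log2 difference was 0.18. The Sox21 call was lost in 14 of 20 alternatives, among them those without any 1 library outside the day 14 pair. Sox15 measured 43.3, 34.5, 29.5, 44.5 and 8.96 CPM in serum and 17.1, 25.8, 16.3, 10.6 and 17.2 in 2i-LIF, lower in 4 of 5 pairs (-0.72 ± 0.35, adjusted p = 0.192). Without the R10 OKS pair Sox15 was called, at -1.12. Sox2 measured 118, 117, 134, 51.9 and 74.3 CPM in serum and 97.7, 112, 69.8, 84.6 and 98.5 in 2i-LIF (-0.03, 95% confidence interval -0.49 to 0.43). Sox2 was higher in 2i-LIF in both R10 pairs and lower in all 3 R9 pairs.

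Sox9 was at 0 in all 5 of the 2i-LIF libraries, and it was not tested, like Sox3 and Sox8. In the R10 pairs alone no member passed. No member's response to the medium was called different between OKMS and OKS (smallest adjusted p = 0.835, Sox11). In the same pairs 3 of the 7 Oct4 and Sox2 targets were higher in 2i-LIF (among them Fbxo15 at 2.34 and Nanog at 2.20) and 2 were lower (Utf1 at -2.63 and Lefty1 at -2.16). Of the progenitor markers 2 of 5 were lower, Slc1a3 (-2.79) and Pax6 (-1.93), with a median of -1.43, and of 3 neuron markers Map2 was (-2.49). Of 5 pluripotency markers 3 were higher, with a median of 1.06. Their part in the Sox differences was not tested.

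Reprogrammed cells in 2i-LIF were last compared with stem cells in the same medium (R10, 2 against 7), which shares the 2i-LIF libraries with the medium comparison. Of 6 members tested 2 were called, against 9.06% of 15880 genes (4.28% higher, 4.77% lower). Sox4 measured 8.82 CPM in OKMS and 29.7 in OKS against 3.73 to 6.27 in stem cells (1.40 ± 0.39, adjusted p = 0.0355). Without the OKS library it was 0.58 and did not pass. The 5 progenitor markers summed to 1.76 CPM in the OKMS and 68.8 in the OKS library. The numbered stem cell libraries had 6.49 to 11.6 and the unnumbered R1 library 46.3, and 0 of the 5 was called. Of 3 mesoderm markers, T (-2.65) and Kdr (-1.52) were lower. Their part in the Sox4 difference was not tested. Sox11 was also called (1.11 ± 0.30, adjusted p = 0.0327), but its 1.76 and 1.56 CPM were 1 read in each library, below the 5.29 and 4.69 CPM that 3 reads make there. The stem cells, sequenced more deeply, had 0 to 2 Sox11 reads (up to 0.471 CPM). Whether Sox11 differed was therefore not resolved at this depth, and edgeR on the recovered reads did not call it.

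Sox2 (84.6 and 98.5 CPM, -0.48), Sox15 (10.6 and 17.2 CPM, -0.59), Sox21 (10.6 and 10.9 CPM, -0.25) and Sox1 (0.28) did not pass. The calls of Sox4 and Sox11 were also lost against the O4G stem cells alone, in R9 alone and without any of several single stem cell libraries, but 2 members were called without the unnumbered R1 library. Over all genes limma called 1438, edgeR 270 and DESeq2 469. On the recovered reads edgeR and DESeq2 called Sox4 and no other member, DESeq2 giving Sox11 no adjusted p.

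Genes that followed the members across libraries are given as a description. For each member, log2(CPM + 1) was correlated over the 22 R9 and the 23 R10 libraries with 10878 genes, and the lower of both Pearson coefficients ranked them. The libraries share cell states and depth. Sox4 was closest to Selenop (0.97) and Tmem176b (0.96), Sox8 to the oligodendrocyte lineage factors Olig1 (0.96) and Olig2 (0.94), and Sox11 to Lmo4 and Nnat (both 0.95). Sox15 was closest to the tight junction gene Cldn4 (0.97) and to Rhbdf2 (0.96), and Sox2 to B3gnt2 (0.84) and Socs2 (0.83). For Sox21 the closest gene, Zfp148, reached 0.70. Among the members Sox4 and Sox9 reached 0.94 in R9 and 0.95 in R10, and Sox2 and Sox15 0.32 and 0.37.

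Sox9 was closest to an unannotated gene recorded on its opposite strand (0.98), named novelGene_Sox9_AS in the deposited tables. This gene measured a mean of 243 CPM in R10 progenitors and 0 to 1.49 in stem cells (-7.66 ± 0.27, adjusted p = 2.52e-12). It stood at 552 and 419 CPM in wild-type serum, and at 164 in OKMS and 291 in OKS at day 2. It was lower in OKMS than in OKS in R9 (-2.0 ± 0.35, adjusted p = 0.00216), as Sox9 was. Without stated use of strand in counting, its reads and those of Sox9 cannot be told apart.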

How the data were processed

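Gene values are CPM as deposited, in a table named after IsoQuant, and transcript values are deposited TPM. Reads were aligned with minimap2 2.24-r1122 to mm10, per the submitters' processing notes, and the deposited transcript annotation and classification gave exons, lengths and coding frames (other deposited values, used as listed). CPM values were whole multiples of 1 read for 100% of values (within 0.02), so read counts were recovered for edgeR 4.0.16 and DESeq2 1.42.0, which served as alternatives. Another 13 columns matched no sample and were not used.

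Tests ran over all genes on log2(CPM + 1) with limma 3.58.1 (R 4.3.3), R9 and R10 apart except for the 5 medium pairs, which were blocked by pair. A gene entered a test when the number of libraries at 1 CPM or more was no lower than the size of the smaller group. A call needed a Benjamini-Hochberg adjusted p under 0.05 and a log2 difference of at least 1. Transcripts were tested likewise on log2(TPM + 1). The fits were tested on simulated data. A group at 0 was set to 3 counts for a fold. The members and lists were chosen with earlier results of these data known, and the named genes are the 9 members and up to 3 called genes of each list. Alternatives changed the pseudocount, filter, scaling, tool, block, protocol or libraries. Transcript forms at day 2 and differences between effects were chosen after seeing the data.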

Additional observations from a re-analysis of the deposited data

Results flagged for a closer look

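Within groups of 4 to 10 libraries, 24 groups of member values were checked for a library far from the others, and 4 were found. The cutoff is passed by chance in about 1 in 20 groups of normal values. These groups pool genotypes or lines and some hold zeros, so that rate need not apply. Sox4 in R10 progenitors was lowest in wild-type replicate 3, at 125 CPM against 196 to 206 in the other 3. Sox8 in the same progenitors was highest in wild-type replicate 2, at 148 CPM against 87.0 to 89.2. In R10 stem cells the unnumbered R1 library had the lowest Sox4, at 3.73 CPM, and the only Sox8 reads, at 0.747 CPM. A lone library with reads among zeros is always flagged. Sox1 differed between protocols: its stem cell minus progenitor difference in R10 minus that in R9 was -2.07 ± 0.42 (limma, adjusted p = 0.0128, with 616 of 16527 genes called), and all 8 progenitor libraries were at 0.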

How the results depend on the processing

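Between stem cells and progenitors the members called numbered 7 under all 21 alternatives in R10 and 7 to 9 under the 13 in R9, and Sox2, Sox3, Sox4, Sox8, Sox9, Sox11 and Sox15 kept their direction. The exception was Sox21 in R10 (-0.18), at 0.02 with quantile normalization, 0.05 with median centring, 0.39 against O4G stem cells only, and -0.36 to 0.10 when leaving out 1 library. Median centring moved the median of all genes from 0.01 to 0.24 there, and the share of higher calls from 38.6% to 53.8% for OKMS against OKS, from 96.5% to 72.4% for factors against wild type and from 94.3% to 82.3% for uninduced against wild-type progenitors. The 3 members lower in serum were 0 in R9 only and 0 without any 1 library. All genes called there (3940) were 1562 in R9 only and 0 to 1141 without 1 library, and Sox21 (-0.19) was 0.07 and -0.45 to 0.07. A replicate block, pairing wild-type replicates by number, called 5605 genes and 3 members. Same-numbered libraries deviated together (0.47 in both of the 2 pairs), too few to show that the numbers pair them. Genes called at day 2 for factors against wild type (114) were 74 with a pseudocount of 0.25, 181 with a minimum of 5 CPM, 29 with quantile normalization, 399 with median centring, 334 with edgeR, 482 with DESeq2, 232 over R9 and R10 together, 0 in R9 only and 0 to 115 without 1 library, with 0 members each time. Sox8 was 1.01 in R9 only there. Between uninduced and wild-type progenitors (212 genes) the count was 39 with quantile normalization, 0 over R9 and R10 together, 0 in R9 only and 0 to 76 without 1 library. Sox3 turned to 0.03 over both protocols and 0.08 in R9 only, Sox4 to -0.01, Sox8 to 0.06, Sox9 to 0.01 and Sox11 to -0.17 in R9 only. Without 1 library Sox2 ran from -0.24 to 0.12, Sox3 from -0.14 to 0.11, Sox4 from -0.06 to 0.66 and Sox9 from -0.47 to 0.21.

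The 5 members of the time course were 3 with a pseudocount of 0.25, 8 with edgeR, 0 with no system term and 0 to 7 without 1 library or day. All genes (2078) were 4573 with edgeR, 318 with no system term and 601 to 2423 without 1 library or day. For OKMS against OKS the 4 members were 0 and the 2567 genes 2 with no day block, and 2 to 5 members and 1672 to 3273 genes without 1 library. Sox2 there was 0.00 with median centring and -0.29 to 0.03 without 1 library. For 2i-LIF against serum the 3 members were 0 and the 1832 genes 188 in R10 pairs only, and 1166 genes in R9 pairs only. Sox2 was 0.06 with median centring, 0.55 in R10 pairs only and -0.22 to 0.19 without 1 library, and Sox1 was -0.50 in R10 pairs only and -0.16 to 0.59 without 1 library. Against stem cells the 2 members were 1 with edgeR, DESeq2, no filter, a minimum of 5 CPM or a pseudocount of 0.25, 0 in R9 only or against O4G only, and 0 to 3 without 1 library. The 1438 genes were 868 with a minimum of 5 CPM, 270 with edgeR, 469 with DESeq2, 110 in R9 only and 57 against O4G only. Sox1 was -1.56 in R9 only and -0.81 to 1.37 without 1 library. Transcripts called (23465) were 10130 with a minimum of 5 TPM, which tests fewer. For the other changes the cause was not tested. The depth sets the limit for Sox1, Sox3, Sox8, Sox9, Sox11 and Sox15 where they rest on few reads: a library at 0 allows up to 3 reads.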
